A study of Mus musculus with 104 samples.

Results

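The experiments described here are those in mouse embryonic stem cells (ESC) with the bait break on chromosome 7, treated with aphidicolin (APH) or with its solvent DMSO. They were taken as all labelled experiments of that cell type and bait, 24 of the 104 in the series. High-throughput genome-wide translocation sequencing (HTGTS) cuts the genome at a fixed bait and sequences the prey, the other DNA end to which the bait end was joined. Under APH there were 8 experiments in line 1 and 4 in line 2, and under DMSO 8 in line 1 and 4 in line 2. Both treatments used the same 2 ESC lines, of mixed C57BL/6 and 129 background, and every group carried the Xrcc4-/- p53-/- genotype. The labels give no dose or duration of APH, and whether each line is a single clone is not given in the sources used here. Within a line, APH and DMSO were compared as a pair of pools, because the experiment letters in the DMSO tables did not match the labels. In the line 1 APH table, reads of experiments A and D were listed again under C. Each was counted once, under the letter listed first, so single values of A, C and D depend on that choice. The labels do not say that experiments came from separate cultures, so the spread between them may be partly technical.

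Aphidicolin inhibits the replicative DNA polymerases, slows replication forks and is a common way to induce replication stress. Xrcc4 holds DNA ligase 4 in classical end joining, and cells without it join broken ends by alternative routes that often use microhomology, a few bases that both ends have in common. Loss of p53 lets such cells survive. Under replication stress, very long transcribed genes are known places of recurrent breaks in neural progenitors.

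The pools held 61362 junctions in line 1 and 71529 in line 2 under APH, and 53859 in line 1 and 52511 in line 2 under DMSO. Beyond 5 Mb of the break and on other chromosomes there were 6114 and 8573 junctions in the APH pools of lines 1 and 2, against 4713 and 5670 in the DMSO pools. These last numbers set the precision of all values for regions away from the bait. Positions are those of the mm9 build.

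The bait end is shown first because every junction starts from it. It was read on the minus strand at chr7:80451956-80452046, 5′ to 3′, and the capitals mark the last 10 bases before the break.
Bait end: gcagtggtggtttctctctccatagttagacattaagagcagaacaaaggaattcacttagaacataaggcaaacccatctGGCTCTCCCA

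Among all 239261 junctions, the most frequent joint removed only a few bases at the break. It joined the bait end at position 80451955 to prey at position 80451943 on the minus strand with 3 bases of microhomology. It was read 41 and 23 times in the APH pools of lines 1 and 2, against 33 and 18 times in the DMSO pools. The next joined position 80452004 to position 80451937 through 6 bases, and was read 25 and 23 times under APH, against 29 and 22 times under DMSO. Both joints were thus found in every pool. These are raw counts from pools of unequal size, so they do not compare the treatments. In the joints below, up to 30 bases lie on either side, and the capitals mark the bases that bait and prey have in common.
Most frequent joint: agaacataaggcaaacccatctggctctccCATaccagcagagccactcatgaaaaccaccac
Second joint: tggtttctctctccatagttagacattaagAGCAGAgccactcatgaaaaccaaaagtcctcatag

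The first comparison asked where on chromosome 7 the prey lay. With APH, junctions lay farther from the break. The share within 10 kb was lower in both lines, at 84.8% and 81.1% of all junctions in the APH pools of lines 1 and 2, against 87.2% and 83.1% in the DMSO pools. The difference averaged -2.23 percentage points ± 0.34 (SD, n = 2 lines). Within single sequencing runs it was lower under APH in 7 of the 9 runs that read both treatments, and the differences ran from -4.76 to 2.79 points. Here and below, runs are not separate samples, because line 1 experiments A to G were each read in more than 1 run. Single APH experiments of line 1 ranged from 80.2 to 89.6% (n = 8), more widely than the pools differed. The share from 10 kb to 5 Mb was 5.28% and 6.94% under APH, against 4.03% and 6.14% under DMSO. It was higher in 6 of 9 runs, and experiment H of line 1, at 7.78%, lay above the other 7 APH experiments of that line. Without its run, line 1 held 4.24% under APH, against 3.76% under DMSO. In the run of line 2 experiment A the share was 4.78% under APH, against 4.88% under DMSO. Chromosome 7 beyond 5 Mb held 2.29% and 2.86% under APH, against 1.90% and 2.45% under DMSO, and was higher in 7 of 9 runs. Other chromosomes held 7.68% and 9.12% under APH, against 6.85% and 8.34% under DMSO, and were higher in 6 of 9 runs. Thus all 3 classes beyond 10 kb were higher with APH in the pools of both lines, although across lines the groups overlapped and single runs went either way. With each position and strand counted once, other chromosomes held 23.3% and 26.4% under APH, against 24.01% and 24.2% under DMSO, so that line 1 turned. With 2 pairs, the exact sign-flip test (two-sided) cannot go below p = 0.5, which is what each of the 4 classes gave.

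Finer distance classes, chosen after the data were seen, showed the shift also inside 10 kb. Within 100 bp of the break lay 15.4% and 15.8% of junctions under APH in lines 1 and 2, against 17.3% and 18.6% under DMSO. From 100 bp to 1 kb the shares were 33.2% and 29.98% under APH, against 37.5% and 32.4% under DMSO. From 1 to 10 kb they were 36.1% and 35.3% under APH, against 32.4% and 32.01% under DMSO. In the class within 100 bp and in that from 1 to 10 kb, the APH and DMSO pools did not overlap. In single runs, both classes up to 1 kb were lower under APH in 9 of 9, and that from 1 to 10 kb was higher in 8 of 9. With each position and strand counted once, the mean difference within 100 bp was -0.44 points in place of -2.33. From 1 to 10 kb it was 1.21 points in place of 3.50, and line 2 held 37.4% under APH, against 37.6% under DMSO.

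**Figure D1:**
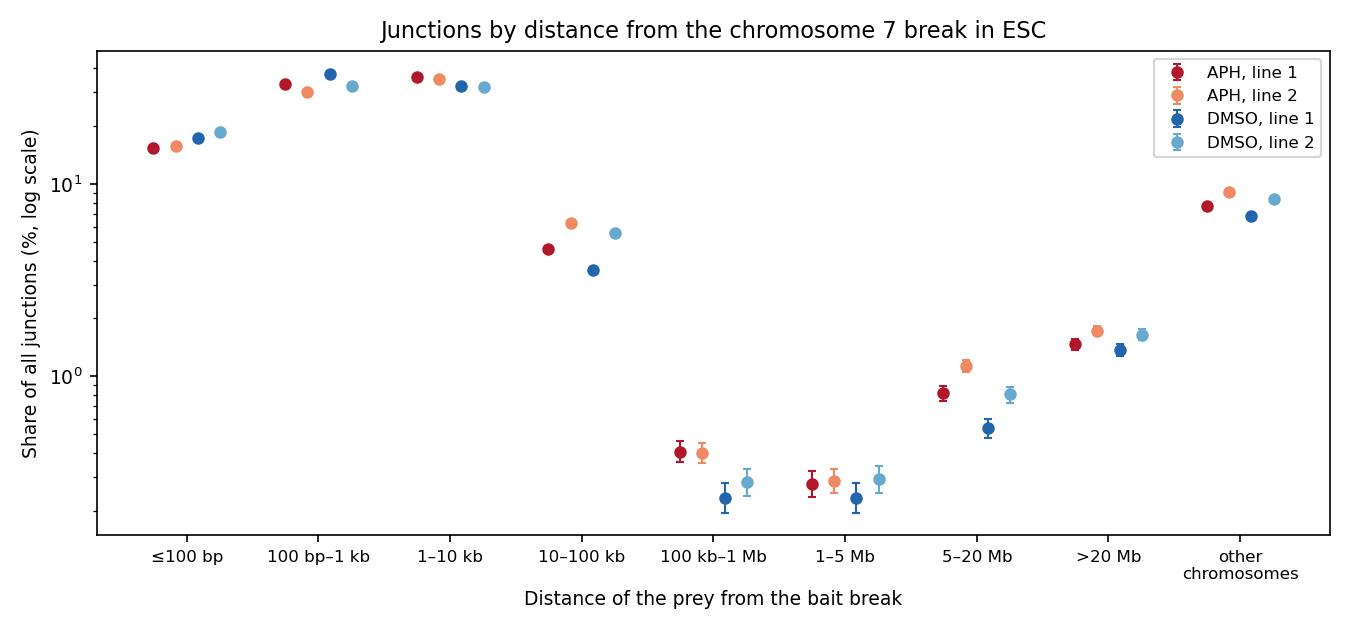
Share of all junctions (%, log scale) by distance of the prey from the chromosome 7 break in the 4 pools, with 95% Clopper-Pearson intervals, which cover counting error only. The APH points lie below the DMSO points of the same line up to 1 kb and above them from 1 kb to 1 Mb and from 5 Mb outwards; from 1 to 5 Mb the lines differ.

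Farther out, the class from 5 to 20 Mb was also higher with APH. It held 501 and 809 junctions under APH in lines 1 and 2, against 289 and 423 under DMSO. As shares of all junctions these were 0.816% and 1.13% under APH, against 0.537% and 0.806% under DMSO, and it was higher in 8 of 9 runs. Experiment H held 220 of the 501 junctions of line 1, and without its run that line had 0.650% under APH, against 0.399% under DMSO. The gap between APH line 1 and DMSO line 2, narrow in all runs, is then an overlap. From 100 kb to 1 Mb the shares were 0.406% and 0.401% under APH, against 0.234% and 0.282% under DMSO. Here experiment H held 157 junctions, 0.867% of its own, while the median of the 8 line 1 experiments was 0.233%. Without its run, line 1 held 0.213% under APH, against 0.178% under DMSO, the mean difference was 0.077 in place of 0.146 points, and the groups overlapped. This class was higher in 5 of 9 runs. From 1 to 5 Mb they were 0.275% and 0.287% under APH, against 0.234% and 0.293% under DMSO. This class was higher in line 1 and lower in line 2.

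The baits on chromosomes 12 and 15 gave the same direction in most classes. Over all 6 ESC pairs of line and bait, the share from 100 bp to 1 kb was lower with APH in 6 of 6, and those from 1 to 10 kb, 10 to 100 kb, 100 kb to 1 Mb and 5 to 20 Mb were higher in 6 of 6. Each gave p = 0.0312 in the exact sign-flip test, the smallest that 6 pairs allow, and 0.0651 after Benjamini-Hochberg adjustment over 25 measures. Here and below, the 6 pairs come from only 2 lines, each read with every bait. The test treats them as independent, so its p does not measure the spread between lines. The share within 100 bp was lower in 5 of 6 pairs (exact sign-flip test, p = 0.0625, adjusted 0.112). The share on other chromosomes was higher in 4 of 6 pairs. It differed by -0.60 points with the chromosome 12 bait in line 2 and -0.48 with the chromosome 15 bait in line 1. Some of the 6 of 6 rises were small. With the chromosome 15 bait, the class from 5 to 20 Mb rose by 0.00098 points in line 1. That from 100 kb to 1 Mb rose by 0.0164 and 0.00623 points in lines 1 and 2. The bait difference itself was tested by exchanging the bait labels over the 15 arrangements, of which the smallest possible p is 0.0667. Within 100 bp the APH effect was -2.33 points ± 0.65 at chromosome 7 (SD, n = 2) and -1.45 points ± 1.48 at the other baits (SD, n = 4), a difference of -0.89 points (exact permutation test, two-sided, p = 0.6, adjusted 1). From 1 to 10 kb the effect was 3.50 points ± 0.34 at chromosome 7 and 5.52 points ± 3.07 at the other baits (exact permutation test, p = 0.4, adjusted 1). In neither class was the effect at chromosome 7 set apart from the spread at the other baits.

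Most joints near the break had the form of a deletion, in which the bait end was joined in its own direction to prey on the far side of the break. Among junctions within 10 kb these were 78.5% and 78.2% under APH in lines 1 and 2, against 80.3% and 79.3% under DMSO. Joints in the opposite direction, in the form of an inversion, were 17.2% and 16.9% under APH, against 15.8% and 16.2% under DMSO. With each position and strand counted once, the mean difference was -0.48 points in place of -1.39 for deletions and 0.58 in place of 1.05 for inversions. In line 2 with the chromosome 12 bait both went the other way, by 2.57 points for deletions and -2.49 for inversions. The deletions were longer with APH. Their median length was 680 and 673 bp under APH, against 580 and 569 bp under DMSO, and the groups did not overlap. The mean difference was 102 bp ± 2.83 (SD, n = 2 lines). At the baits on chromosomes 12 and 15 the differences were 226, 17, 290.5 and 197 bp, so that 6 of 6 pairs were higher (exact sign-flip test, p = 0.0312, adjusted 0.0651).

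With each position and strand counted once, the median lengths were 2830 and 2852 bp under APH, against 2175 and 2369 bp under DMSO, because frequent joints lie close to the break. The mean difference was then 569 bp. In each of the 9 sequencing runs that read both treatments, the median was longer under APH, by 6 to 184 bp. Single APH experiments ranged from 404 to 834 bp with a median of 621 bp in line 1 (n = 8), and from 536 to 709 bp with a median of 708 bp in line 2 (n = 4). The experiments of line 1 therefore spread more widely than the difference between its pools.

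**Figure D2:**
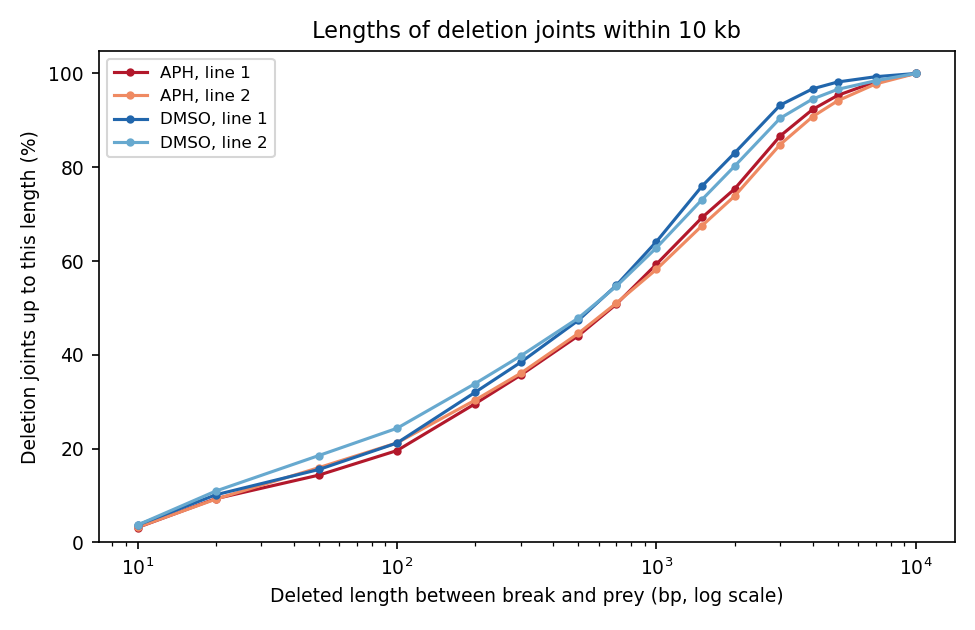
Cumulative share (%) of deletion joints within 10 kb, by deleted length (bp, log scale), for the 4 pools. From 200 bp upwards the APH curves of both lines lie to the right of both DMSO curves until they meet near the top, with medians of 680 and 673 bp under APH and of 580 and 569 bp under DMSO.

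Joints were further sorted by the bases at the joint itself. Microhomology of 2 or more bases was found in 51.9% and 46.9% of all junctions under APH in lines 1 and 2, against 50.1% and 47.5% under DMSO. Inserted bases were found in 25.01% and 31.3% under APH, against 26.4% and 29.5% under DMSO. For both, the lines moved in opposite directions, and the lines differed more from each other than the treatments did within a line. Direct joints made up 9.07% and 8.90% under APH, against 9.33% and 9.42% under DMSO, and were lower with APH in 6 of 6 ESC pairs over all baits (exact sign-flip test, p = 0.0312, adjusted 0.0651). Joints with 1 base of microhomology made up 14.05% and 12.9% under APH, against 14.1% and 13.7% under DMSO. Prey on the plus strand made up 21.2% and 21.1% under APH, against 19.1% and 19.98% under DMSO. The APH pools lay above the DMSO pools for this last share, which includes the inversions next to the break. Beyond 5 Mb and on other chromosomes it was 45.2% and 42.9% under APH, against 45.0% and 44.0% under DMSO.

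The next comparison asked which regions away from the bait gained or lost junctions with APH. Junctions were counted in 500 kb bins, and 882 bins were tested. No bin passed (0 of 882, 0% called, either direction) at an adjusted p under 0.05 in the quasi-likelihood test of edgeR. There were 51 bins at an unadjusted p under 0.05, and DESeq2 called 0, with 33 at an unadjusted p under 0.05. In simulated counts of this comparison the test recovered 12% of 4-fold and 34% of 8-fold changes. The median log2 fold change over all bins was 0.30 with TMM scaling and 0.07 when pools were scaled by their junctions on other chromosomes, so log2 values of single bins are to be read against 0.30.

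The 5 bins with the smallest p are given with their junction counts. The bin on chromosome 5 from 132.5 to 133 Mb held 13 and 22 junctions under APH in lines 1 and 2, against 0 and 2 under DMSO. The fitted change in log2 was 3.88 ± 1.03 (SE; adjusted p = 0.158 in edgeR), and the summed shares differed 12.4-fold (95% counting interval 3.18 to 106). The adjoining bin from 132 to 132.5 Mb held 18 and 19 under APH, against 0 and 6 under DMSO (2.50 ± 0.85; edgeR adjusted p = 0.600). These fitted values lean on DMSO line 1, which held none: without line 1 they were 3.22 and 1.45, and without line 2 8.16 and 8.63, where a DMSO count of 0 leaves the fitted size undefined. In both bins, both APH pools lay above both DMSO pools. They lie between the starts of Galnt17 and Eif4h, and Auts2, a gene of 1106 kb with a role in neural development, is the longest of the 12 protein-coding genes of that interval.

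Of the other 3 bins, 1 was higher with APH and 2 were lower. On chromosome 7 from 57.5 to 58 Mb there were 26 and 25 junctions under APH, against 10 and 3 under DMSO (1.80 ± 0.62; edgeR adjusted p = 0.600), with 2.83 without line 1 and 1.19 without line 2. Nell1, of 888 kb, which encodes a secreted protein of bone formation, is the longest of 10 genes between the placed starts around it. On chromosome 8 from 126.5 to 127 Mb there were 0 and 0 under APH, against 4 and 4 under DMSO, at least 3.77-fold lower when 3 counts are set as the floor over the APH pools (edgeR adjusted p = 0.600). On chromosome 8 from 123 to 123.5 Mb there were 1 and 0 under APH, against 8 and 4 under DMSO (-3.68 ± 1.26; edgeR adjusted p = 0.600), with -6.40 without line 1, where no APH junction is left, and -3.12 without line 2. The start of Irf8, a transcription factor of blood cells, lies in that last bin.

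The 2 differences between effects gave no call either. For the APH effect at the chromosome 7 bait minus the mean of the baits on chromosomes 12 and 15, 0 of 882 bins passed (0% called; edgeR quasi-likelihood test, 55 at an unadjusted p under 0.05; DESeq2 0, with 32). For ESC minus neural progenitor cells (NPC) at the chromosome 7 bait, 0 of 882 passed (0% called; edgeR quasi-likelihood test, 39 at an unadjusted p under 0.05; DESeq2 0, with 26). In the chromosome 5 bin from 132.5 Mb the effect was larger at this bait than at the other baits by 0.48 ± 1.303 and larger in ESC than in NPC by 2.53 ± 1.32 on the log2 scale (SE; edgeR adjusted p = 1 and 0.908). In neither contrast was the difference beyond its error after adjustment.

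A more direct reading came from bins chosen without these pools. In a fit on the 20 other pools, 20 of 1716 bins rose with APH in ESC with the baits on chromosomes 12 and 15 (1.17% called; edgeR adjusted p under 0.05) and 0 fell. These 20 bins were then read in the chromosome 7 pools, which had no part in the choice. They held 110 of 6114 junctions in the APH pool of line 1 (1.80%, 95% Clopper-Pearson interval 1.48 to 2.16) and 130 of 8573 in line 2 (1.52%, 1.27 to 1.80). Under DMSO they held 16 of 4713 in line 1 (0.339%, 0.194 to 0.551) and 51 of 5670 in line 2 (0.899%, 0.670 to 1.18). Both APH pools lay above both DMSO pools, and the difference averaged 1.04 points ± 0.60 (SD, n = 2 lines). The reads carry no molecular identifiers and may repeat a molecule, so the intervals cover counting error only.

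The 20 bins did not contribute alike. The share was higher with APH in both lines in 9 of the 20 bins, against 337 of all 1716 bins (19.6%). It was lower in both lines in 1 of the 20, against 326 of all 1716 bins. Both APH pools lay above both DMSO pools in 5 of the 20, against 13.6% of all bins. The median log2 ratio of summed shares, with a pseudocount of 1 junction, was 0.61 over the 20 bins and -0.09 over the 1716. The bins on chromosomes 5 and 8 held 61 and 95 of these junctions under APH in lines 1 and 2, against 4 and 28 under DMSO. Without them the share was 0.810% and 0.413% under APH, against 0.255% and 0.408% under DMSO. In line 2, nearly all of the difference thus lay on chromosomes 5 and 8.

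**Figure D3:**
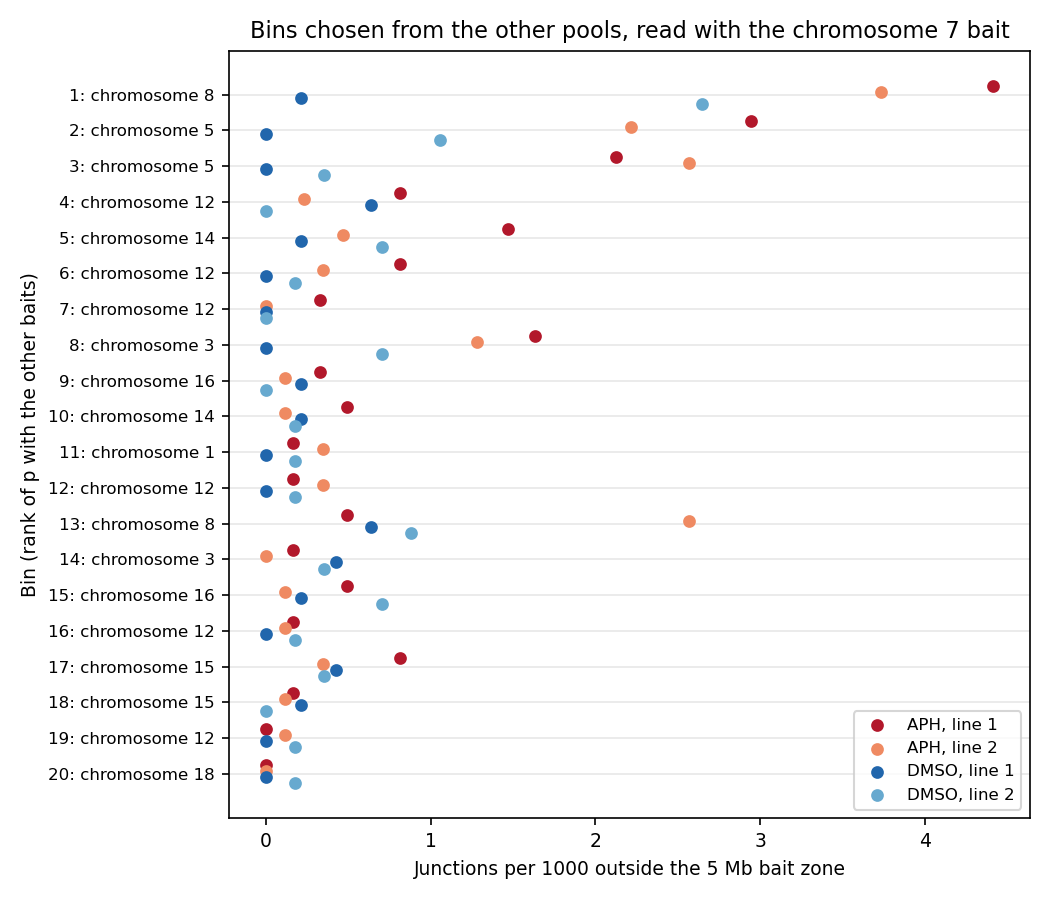
Junctions per 1000 outside the 5 Mb bait zone in each of the 20 bins chosen from the other pools, for the 4 chromosome 7 pools; bins run from the smallest p with the other baits at the top. The first 3 bins, on chromosomes 8 and 5, the sixth, on chromosome 12, and the eighth, on chromosome 3, have both APH points above both DMSO points, while most bins below hold few junctions in any pool.

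The leading bin on chromosome 8, from 117 to 117.5 Mb, was also the busiest of all bins off chromosome 7. It held 27 and 32 junctions under APH in lines 1 and 2, against 1 and 15 under DMSO. The groups did not overlap, but DMSO line 2 lay far above DMSO line 1. The fitted change was 1.91 ± 0.73 (SE; edgeR adjusted p = 0.733). The next bin, from 117.5 to 118 Mb, held 3 and 22 under APH, against 3 and 5 under DMSO, so that line 1 showed no gain there. Both lie between the placed starts of 4930571O06Rik and Gm51552. Wwox, a tumour suppressor gene at a well known fragile site, is the longest of the 8 protein-coding genes there, at 913 kb.

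Across the wider regions, the chromosome 5 locus (chr5:131500001-133500000) held 31 and 43 junctions under APH in lines 1 and 2, against 2 and 9 under DMSO. The chromosome 8 locus (chr8:116500001-118500000) held 32 and 62 under APH, against 7 and 25 under DMSO. The summed shares differed 4.76-fold (95% counting interval 2.51 to 9.94) on chromosome 5 and 2.08-fold (1.38 to 3.21) on chromosome 8. Junctions were spread over both loci. On chromosome 5 the 85 junctions took 70 different positions and strands, with at most 4 in any 1 kb, and on chromosome 8 the 126 took 89, with at most 5. Prey fell on both strands, 30 plus and 55 minus on chromosome 5 and 48 plus and 78 minus on chromosome 8.

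Joints from these loci under APH are shown because they carry the gain. They were the lowest position of their class with at least 30 bases of prey, from chr5:132000001-133000000 and chr8:117000001-118000000. Capitals mark bases in common or, where stated, inserted bases that match neither side; the direct joints have none.
Chromosome 5, direct: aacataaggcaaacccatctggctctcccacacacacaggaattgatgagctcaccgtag
Chromosome 5, microhomology: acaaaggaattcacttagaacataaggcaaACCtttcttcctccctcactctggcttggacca
Chromosome 5, inserted: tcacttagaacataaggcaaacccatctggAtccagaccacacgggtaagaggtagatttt
Chromosome 8, direct: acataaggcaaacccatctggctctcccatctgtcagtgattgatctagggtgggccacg
Chromosome 8, microhomology: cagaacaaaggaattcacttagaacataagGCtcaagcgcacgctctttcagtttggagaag

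The direct joint on chromosome 5 lies at chr5:132364429-132364458 on the minus strand, and its bait end is the break itself. In the 20 bins, 53.3% of the 240 APH junctions had 2 or more bases of microhomology (46.8 to 59.8), against 53.7% of the 67 DMSO junctions (41.1 to 66.0). In the remaining junctions beyond 5 Mb or on other chromosomes it was 53.9% under APH, against 56.0% under DMSO. The intervals of the 20 bins include these values, so no difference in this class was detectable at this depth. The same held for inserted bases, direct joints and the strand of the prey. Joints with 1 base of microhomology made up 16.7% of the APH junctions in the 20 bins (12.2 to 22.0), a range above the 9.14% of the remaining APH junctions. Under DMSO they were 13.4% in the 20 bins (6.33 to 23.97), against 9.50% in the remaining junctions. This is 1 of 5 measures of the joint that were set side by side, with no test over samples.

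The other chosen bins held few junctions. On chromosome 3 from 55.5 to 56 Mb there were 10 and 11 under APH in lines 1 and 2, against 0 and 4 under DMSO. Nbea, a gene of vesicle traffic in neurons, is the longest of 62 genes in the wide interval between the placed starts. On chromosome 14 from 117.5 to 118 Mb there were 9 and 4 under APH, against 1 and 4 under DMSO, higher in line 1 and lower in line 2. The interval holds the neighbouring glypican genes Gpc5 and Gpc6, of 1433 and 1055 kb, which encode cell surface proteoglycans. On chromosome 12 from 38.5 to 39 Mb, where the start of Dgkb, a diacylglycerol kinase, was placed, there were 5 and 3 under APH, against 0 and 1 under DMSO. On chromosome 12 from 35 to 35.5 Mb, where the start of Hdac9, a histone deacetylase, was placed, there were 5 and 2 under APH, against 3 and 0 under DMSO. The remaining 12 of the 20 bins held at most 5 junctions in any pool.

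The gain in these bins varied between APH experiments. In line 1 the share was lowest at 0.376%, had a median of 1.65% and was highest at 3.60% (n = 8). In line 2 it was 0.338% in experiment A and 1.73, 1.85 and 1.90% in B, C and D. Experiments A and B of line 1 (0.376 and 0.442%) lay near the DMSO pool of that line (0.339%). Experiment D of line 1 (0.978%) lay above it and near the DMSO pool of line 2 (0.899%). Experiment A of line 2 lay below the DMSO pool of its own line. The line 2 experiment was read in a run of its own, in which DMSO held 0.296% (3 of 1013 junctions), against 0.338% (6 of 1776) under APH. In the other run of line 2 the shares were 1.82% under APH and 1.03% under DMSO. In all 9 runs that read both treatments the share was higher under APH, by 0.04 to 3.12 points, and libraries read in several runs enter more than once. The part of labels, runs and treatment strength in this spread was not tested. Reads of line 1 experiments A and D were also listed under C, so the shares of A, C and D depend on the letter kept.

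**Figure D4:**
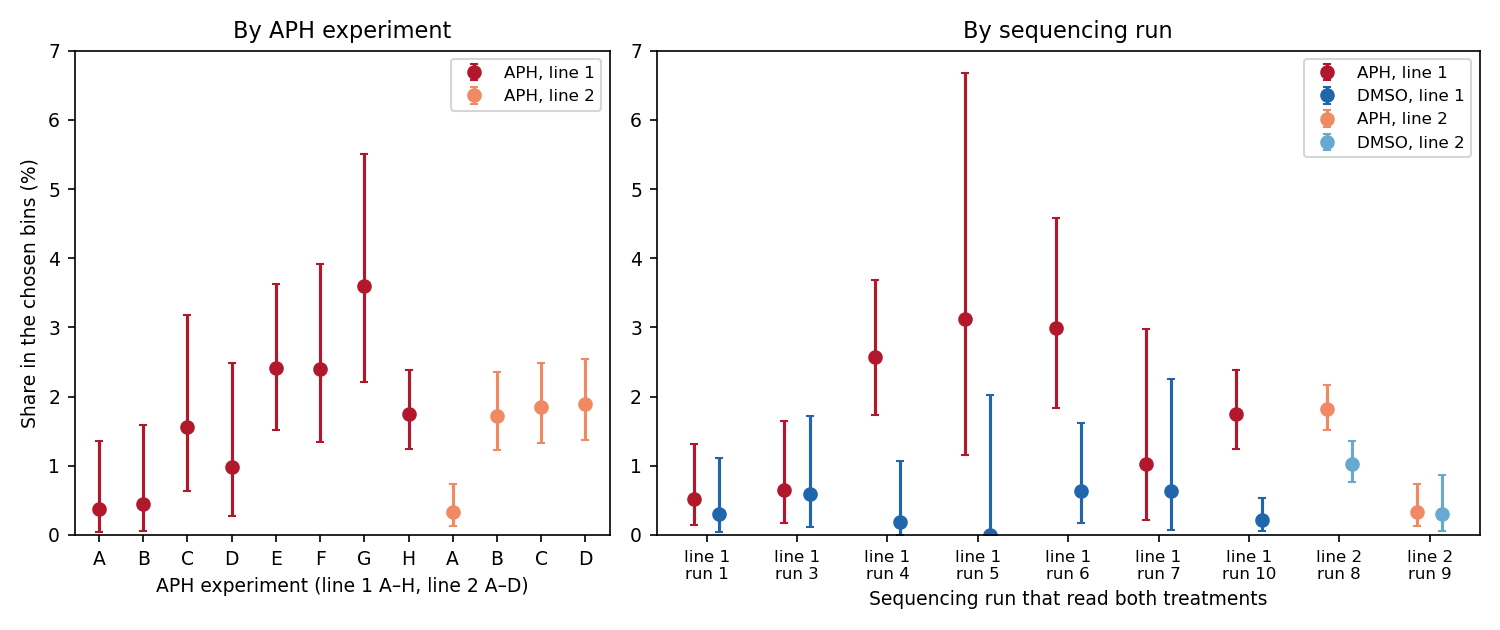
Share (%) of junctions outside the bait zone that lie in the 20 chosen bins, with 95% Clopper-Pearson intervals: left, each APH experiment; right, APH beside DMSO in each sequencing run that read both. The APH point is higher in 9 of 9 runs, with wide overlap in line 1 runs 1, 3 and 7 and line 2 run 9.

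Gene by gene, few long genes could be placed. Of the 33 long genes listed as sensitive to replication stress, 2 had a start matched in mm9. Hdac9 (870 kb) held 4 and 2 junctions under APH in lines 1 and 2, against 1 and 1 under DMSO. Tenm4 (740 kb, chromosome 7), a teneurin of cell adhesion, held 45 and 22 under APH, against 13 and 16 under DMSO. Per 1000 junctions outside the bait zone, Tenm4 was higher with APH in line 1 only. Among 20 other long genes, 2 were placed, of which Foxp1 held 0 and 1 under APH, against 1 and 0 under DMSO, and Maml2 held none. Of the 17 long genes listed for chromosome 7, 3 were placed. Gabrg3, a subunit of the GABA-A receptor, held 20 and 41 under APH, against 16 and 23 under DMSO. Sox6, a transcription factor, held 5 and 5 under APH, against 10 and 7 under DMSO. Of all 165 placed protein-coding genes of 100 kb or more, 18 (10.9%) were higher in both lines and 6 lower in both.

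On chromosome 7 itself, none of the 5 busiest bins beyond 5 Mb passed the test. The bin from 106.5 to 107 Mb held 34 and 73 junctions under APH in lines 1 and 2, against 38 and 51 under DMSO (-0.04 ± 0.55; edgeR adjusted p = 0.984). The bins from 64.5, 87 and 35.5 Mb had log2 fold changes of 0.62, 0.22 and -0.43. The bin from 35.5 Mb held 14 and 24 under APH, against 17 and 26 under DMSO. Per 1000 junctions outside the bait zone these were 2.29 and 2.80 under APH, against 3.61 and 4.59 under DMSO, so that both APH pools were below both DMSO pools (edgeR adjusted p = 0.903). The bin from 69 to 69.5 Mb went the other way, with 30 and 50 under APH, against 3 and 24 under DMSO (1.57 ± 0.59; edgeR adjusted p = 0.733). Otud7a, a deubiquitinase gene, is the longest of 9 genes around it. Off chromosome 7, the busiest bins after that of chromosome 8 were on chromosome 3 from 46 Mb, X from 166 Mb, chromosome 14 from 28 Mb and chromosome 11 from 58 Mb.

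Several of these busy bins owed their count to a single narrow site. On chromosome 3, 69 of 71 junctions lay in 1 kb (chr3:46254000-46254999), with 16 and 20 under APH in lines 1 and 2, against 12 and 21 under DMSO, and 40 of them at a single position. On chromosome 14, 52 of 57 junctions lay in chr14:28341000-28341999, with 22 and 11 under APH, against 15 and 4 under DMSO. On chromosome 11, 51 of 52 lay in chr11:58442000-58442999, with 27 and 8 under APH, against 12 and 4 under DMSO. None of these 3 sites had a junction in ESC with the baits on chromosomes 12 and 15, while NPC with the chromosome 7 bait had 16, 102 and 72. Prey from each site is shown, 40 bases from the junction on, as the most frequent read at its most used position. That was 40 of 40 reads on chromosome 3, 2 of 3 on chromosome 14 and 1 of 6 on chromosome 11. The junctions on chromosomes 14 and 11 took 46 and 40 different positions and strands, so a single read is only an example there.
Chromosome 3 site: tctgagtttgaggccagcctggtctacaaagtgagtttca
Chromosome 14 site: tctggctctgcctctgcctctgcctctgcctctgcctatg
Chromosome 11 site: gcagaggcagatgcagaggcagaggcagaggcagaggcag

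The sites on chromosomes 14 and 11 are runs of the unit CTCTGC on one strand or the other (GCAGAG). These 6-base words are those of the prey at these sites, so their presence in all 52 and 51 prey reads there is no test. Among all 25070 junctions beyond 5 Mb or on other chromosomes, 16.1% held one of them. The 6 bases of microhomology in the second joint, AGCAGA, have the letters GCAGA in common with this unit. That joint used bait position 80452004, however. The commonest bait end at these 2 sites was position 80451960, in 14 of 52 and 11 of 51 junctions. Up to that position the bait reads tctGGCTCT, the letters that open the chromosome 14 prey shown. These matches are a description of letters only. These narrow sites were present with and without APH.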

How the data were processed

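The labels' protocols name linear amplification-mediated PCR, and the submitters' processing notes name Bowtie2 and mm9; the junction caller and the guide are not stated there. Per the file headers, each row of the deposited tables is a single junction read, so the values are raw counts without normalization. Repeated read names within a table were dropped, 7702 rows in the line 1 APH table. There, experiments A and D were listed again under C, and each read kept the letter it was first listed with. Rows of 24 pools were counted in 500 kb bins outside 5 Mb of the break at position 80451956, taken as the most frequent end of the bait alignment on the side away from the primer; for the baits on chromosomes 12 and 15 this gave 13000857 and 86848207. Bins were kept by filterByExpr (4 groups, minimum count 5) and tested with edgeR 4.0.16 (TMM, quasi-likelihood, Benjamini-Hochberg, 0.05), with 12 blocks for line and bait and a separate APH term for every combination of cell type and bait; DESeq2 1.42.0 was an alternative. The block was kept because pairs are from the same cell line: deviations of APH and DMSO pools correlated at 0.485 and 0.472 with the own line and at 0.345 and 0.372 with the other. The test was tried on simulated data. Bins were named by rule: as under 5 passed, the 5 of lowest p, with the bins chosen from the other pools and the 5 busiest. Members, lists and tests were chosen with earlier results of these data known. Genes were located by matching 28-letter words of RefSeq promoters (GRCm38.p6) to the reads, which placed the starts of 1648 of 27025 genes in mm9; genes in between come from RefSeq order, and lengths from that assembly. Intervals and exact tests used scipy 1.17.1. Other bin widths, library sizes, filters, counting rules, bait zones and single lines were the alternatives.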

Additional observations from a re-analysis of the deposited data

Results flagged for a closer look

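Among 28 groups of APH experiments checked for a sample that stands apart, 10 held one, where chance alone flags about 1 in 20. The groups are measures on the same experiments, and several are parts of the same total. The checks are therefore not independent, and a single unusual experiment can be flagged in several. In line 2, experiment A stood apart from B, C and D in 7 measures. Its share in the 20 chosen bins was 0.338%, against 1.73 to 1.90% in the others. From 1 to 10 kb it held 29.7% of junctions, against 36.3 to 36.8%, and from 10 kb to 5 Mb 4.78%, against 7.32 to 7.53%. It was the highest within 100 bp (19.0%), from 100 bp to 1 kb (33.5%) and for other chromosomes (10.6%). Its deletions had the shortest median, 536.5 bp, against 706 to 709 bp. It was the only APH experiment of its sequencing run, in which the DMSO reads had a median of 440 bp.

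In line 1, experiment H was the highest of 8 for the share from 10 kb to 5 Mb (7.78%) and for prey on the plus strand (25.9%), and experiment B for joints with 1 base of microhomology (14.9%). Experiment H was the only APH experiment of its run. By the read names, that run shared its instrument with the line 2 runs. The other line 1 runs that read both treatments carried another instrument name. Line 2 experiments B to D held 7.32 to 7.53% from 10 kb to 5 Mb, and the part of the instrument was not tested.

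The lines moved in opposite directions for inserted bases, by -1.39 points in line 1 and 1.87 in line 2, and for 2 or more bases of microhomology, by 1.74 points in line 1 and -0.58 in line 2. With 1 pair a line, these differences between lines were not tested.

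Junctions within 5 kb of the break used for the bait on chromosome 12 (position 13000857) were found in line 2 of the chromosome 7 pools, 22 under APH and 26 under DMSO. Line 1 held 0 under APH and 0 under DMSO. In line 2 with the chromosome 12 bait, 16 junctions under APH and 14 under DMSO lay within 5 kb of the chromosome 7 break. The site was not limited to these pools. In the 1 kb window chr12:13000000-13000999, ESC with the chromosome 15 bait held 90 junctions. NPC held 487 there with the baits on chromosomes 12 and 15 together, and 0 with the chromosome 7 bait. The source of these junctions was not tested.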

How the results depend on the processing

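The count of called bins stayed at 0 for all 3 edgeR comparisons under the alternatives run, with 1 exception: with the 12 ESC pools alone, 55 bins were tested for the APH effect and 1 passed, on chromosome 5 from 132.5 Mb; fewer bins were tested there. Without the replicate block it was 0, with 59 bins at an unadjusted p under 0.05. With a line left out it was 0 to 0; the pair that remains is then assumed to vary like the other pools. The mean difference in the chosen bins ranged from 0.617 to 1.46 points with a line left out. It was 0.117 points of all junctions and 0.280 without the bins on chromosomes 5 and 8. For chromosome 7 beyond 5 Mb it was 0.565 points with each position once and 1.17 without the bait zone, and for other chromosomes 0.735 with each position once, with the lines in opposite directions, -1.17 without the zone, where the 2 classes sum to 100%, 0.734 without the run of line 2 experiment A and 1.02 without that of line 1 experiment H. Without the run of experiment H, the difference from 10 kb to 5 Mb was 0.636 points in place of 1.03. Without the zone, direct joints were 0.275, 2 or more bases of microhomology -1.73 and plus strand prey -0.435. With each position once, 2 or more bases were -0.417 and chromosome 7 beyond 20 Mb -0.121. Inserted bases were -0.090 without the run of line 2 experiment A. With a line left out, inserted bases ranged from -1.39 to 1.87, 2 or more bases from -0.578 to 1.74, the class from 1 to 5 Mb from -0.00667 to 0.041, and beyond 5 Mb or on other chromosomes inserted bases from -1.01 to 4.31 and plus strand prey from -1.08 to 0.214; the cause was not tested. The finer distance classes, and leaving out either run, the bins on chromosomes 5 and 8, the runs that read 1 treatment or the 4 APH experiments of lowest share, were chosen after seeing the data; the last gave 1.37 points in the chosen bins, a choice that can only raise the difference. Counts per bin and 2 lines limit what could be called.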
